A study of Mus musculus with 5 samples.

Results

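The clustered replication-dependent histone genes were taken as every row of the count table with the biotype protein_coding and a gene name starting with Hist1h, Hist2h, Hist3h or Hist4h. The rule gave 68 of the 49671 genes in the table, and the type was read from the name: 6 genes for H1, 19 for H2A, 18 for H2B, 12 for H3 and 13 for H4. On GRCm38, 55 members lay on chromosome 13 (Hist1 cluster), 10 on chromosome 3 (Hist2), 2 on chromosome 11 (Hist3) and 1 on chromosome 6 (Hist4), and 63 had a single block of exon.

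RNA was sequenced from 5 single mouse embryos of mixed strain background, each as the epiblast with its visceral endoderm (VE) after removal of the extra-embryonic ectoderm (ExE), to ask what loss of the transcription factor Oct4 (gene Pou5f1) changes around the onset of gastrulation. The 2 SO+ embryos carried no Cre and had a floxed beside an intact Oct4 allele (Sox2Cre-/-; Oct4 fl/+). The 3 SO- embryos had the Sox2Cre transgene and, as their Oct4 alleles, 1 floxed and 1 null (Sox2Cre+/-; Oct4 fl/-). Both genotypes thus share a floxed allele, and Cre was present in SO- alone. The Sox2 promoter drives Cre mainly in the epiblast soon after implantation, so the VE was for the most part not deleted, and the protein is lost first in a mosaic of cells.

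Histones are the proteins around which DNA is wound. H2A, H2B, H3 and H4 build the core of the nucleosome, and the linker histone H1 binds the DNA between cores. In dividing cells most of the supply comes from these clustered genes, which are transcribed in S phase, when DNA is copied. Their mRNAs have no introns and, alone among animal mRNAs, mostly no poly(A) tail: they end just after a short stem-loop that the protein Slbp binds. Some of the genes also make a longer polyadenylated form. The libraries were made by SmartSeq2, which amplifies full-length cDNA from polyadenylated RNA, so the counts describe the histone RNA that such priming captured and not the total amount of histone mRNA.

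The stem-loop is shown because it marks the end of the tailless mRNA, and a poly(A)-primed library reads past it only in longer forms. It was searched in GENCODE M21 transcripts as a perfect stem of 6 bases starting with GG and a loop of 4 bases starting with TT, in the first 100 bases after the stop codon. It was in the model of 43 of the 68 members, 21 to 58 bases after the stop codon (median 31). Among the 31 members whose model goes on for at least 100 bases after the stop codon, 25 had one, against 7 of 19726 other protein-coding genes (0.0355%). The core of 16 bases followed the histone type. The form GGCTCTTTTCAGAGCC was in 25 members, all of types H1, H2A, H2B or H3, and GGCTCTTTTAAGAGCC in 6 members of types H1, H2B and H3. The stem with CCC or TCC, as in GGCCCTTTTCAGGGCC (7 members), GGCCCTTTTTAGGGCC (2) and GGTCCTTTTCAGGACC (2), was found in H4 genes alone, and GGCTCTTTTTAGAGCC in Hist2h2ac (H2A). Sites of members with high counts or large differences follow, 5′ to 3′ with the stem-loop in capitals, from exons on GRCm38.
Hist1h1c (H1, chr13:23739507-23739532, + strand): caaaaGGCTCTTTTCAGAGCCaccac
Hist1h1e (H1, chr13:23621777-23621802, - strand): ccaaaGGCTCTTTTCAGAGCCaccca
Hist1h2ab (H2A, chr13:23751567-23751592, + strand): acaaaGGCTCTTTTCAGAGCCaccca
Hist1h3c (H3, chr13:23745042-23745067, - strand): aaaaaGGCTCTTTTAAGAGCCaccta
Hist1h4d (H4, chr13:23581945-23581970, + strand): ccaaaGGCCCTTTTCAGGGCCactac
The model of Hist1h1b, the member with the most counts, ends at its stop codon, so no base of the stem-loop window lies in it. Those of Hist1h2bc and Hist2h2be go on after the stop codon for 742 and 2192 bases without a stem-loop in the first 100.

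Promoters are shown because the histone types are known to be switched on in S phase through different elements. The windows ran from 250 bases before to 50 bases after the RefSeq start on GRCm38.p6 and were matched for 62 of the 68 members. The octamer motif ATTTGCAT, which POU proteins such as Oct1 and Oct4 bind, was in 7 of 18 H2A and 6 of 16 H2B windows on either strand, in none of the H1, H3 or H4 windows, and in 1.74% of 32851 promoters. The H1 box AAACACA was in 5 of 6 H1 windows and in 7.18% of all promoters. CCAAT was in every H1, H2A, H2B and H3 window but in 3 of 12 H4 windows, and in 37.4% of all promoters. TATAAA was in 35 of the 62 windows and in 13.6% of all promoters. The 150 bases before the start follow for an H1, an H2B and an H4 gene, 5′ to 3′ on the gene's strand, with these motifs on either strand in capitals.
Hist1h1b (chr13:21780626-21780775, - strand): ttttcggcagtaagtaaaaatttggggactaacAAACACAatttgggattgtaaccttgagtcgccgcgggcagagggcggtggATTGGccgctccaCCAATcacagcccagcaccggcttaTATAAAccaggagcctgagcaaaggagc
Hist1h2bk (chr13:22035671-22035820, + strand): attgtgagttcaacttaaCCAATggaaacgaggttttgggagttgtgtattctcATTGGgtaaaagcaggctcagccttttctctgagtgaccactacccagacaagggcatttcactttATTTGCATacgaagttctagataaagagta
Hist1h4d (chr13:23581418-23581567, + strand): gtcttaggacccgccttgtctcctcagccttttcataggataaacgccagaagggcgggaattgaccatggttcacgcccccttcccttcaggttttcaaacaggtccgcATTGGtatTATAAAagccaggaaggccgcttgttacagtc

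Total counts were 27538119 and 27047148 in the SO+ embryos and between 1117566 and 4191498 in the SO- embryos, so that SO+ libraries were on average 8.67 times larger. A floor of 3 counts, taken as the smallest level a library can show, corresponds to 0.109 and 0.111 CPM (counts per 1e6 counts of the library) in SO+ and to 0.726, 2.68 and 0.716 CPM in SO- embryos 1, 2 and 3. The SO+ libraries share a second index and the SO- libraries another, so index, depth and genotype cannot be told apart. Pou5f1, the deleted gene, checked the labels: it was at 920.2 and 435.3 CPM in SO+ and at 27.8, 12.5 and 43.7 CPM in SO- embryos.

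The 68 histone genes together took few counts in every library: 5903 and 4947 in the SO+ embryos and 1152, 300 and 1233 in the SO- embryos. That was 214.4 and 182.9 CPM in SO+, and 278.6, 268.4 and 294.2 CPM in SO-. Every SO- embryo lay above both SO+ embryos, and the means were 198.6 ± 22.2 CPM (SD, n = 2) and 280.4 ± 12.96 CPM (SD, n = 3), a ratio of 1.41. The core histone genes without H1 overlapped, with 141.7 and 112.8 CPM in SO+ and 160.8, 131.5 and 172.5 CPM in SO-. For scale, the single replacement histone gene H2afz, whose mRNA is polyadenylated, had between 960.8 and 1078 CPM in the 5 embryos. No test was run on a sum over members.

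Within the family, counts were held by a few genes. Per kb of exon, Hist1h1b had the highest level in both genotypes, with means of 56.3 CPM per kb in SO+ and 95.99 CPM per kb in SO-. In SO+ it was followed by Hist1h4d and Hist1h2ap, which were level at 25.1 and 25.04 CPM per kb, and by Hist3h2ba at 14.96 CPM per kb. In SO- it was followed by Hist1h4d at 41.6 CPM per kb, Hist1h2ap and Hist1h2ao at 16.9 CPM per kb each, and Hist1h1e at 14.8 CPM per kb. This order depends on the length of the annotated exons, 1138 bases for Hist1h4d and 482 for Hist1h2ap. Without division by length, their mean levels in SO+ were 28.6 and 12.1 CPM. Hist1h1b and Hist1h4d together held 34.6% and 36.5% of all histone counts in SO+ and 42.8%, 46.0% and 38.4% in SO- embryos. The 46 members left out of the test for low counts held between 5% and 11.7% in each embryo. H2afz reached 564.7 and H3f3b, a replacement H3 gene, 417 CPM per kb, on the same scale, so the highest clustered gene stood well below them.

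**Figure D1:**
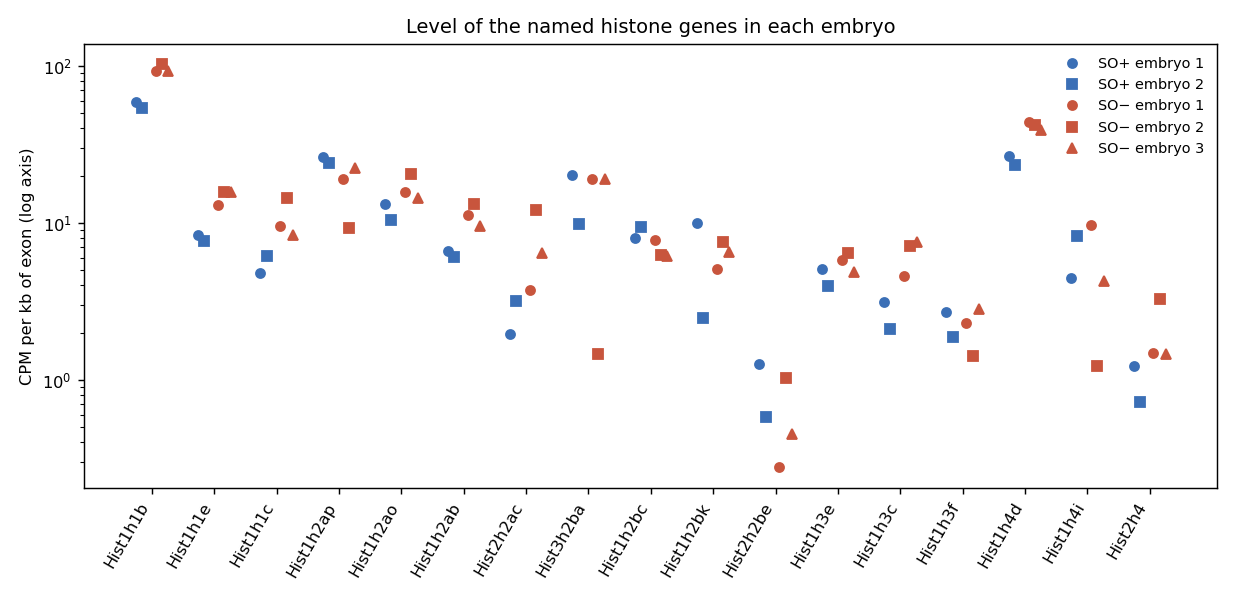
Level of the 17 named histone genes in each embryo, as CPM per kb of exon on a log axis, grouped by type from H1 to H4; blue marks SO+ and red SO- embryos, and each symbol is 1 embryo. Hist1h1b stands above the other genes in every embryo, Hist1h4d comes next in SO- embryos and is level with Hist1h2ap in SO+ embryos, and for Hist1h1b, Hist1h1e, Hist1h1c and Hist1h4d the red symbols lie above the blue ones.

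Summed by type, H1 and H4 differed between the genotypes by more than the spread within them, H3 by less clearly, and H2A and H2B overlapped. H1 genes summed to 72.6 and 70.1 CPM in SO+ and to 117.8, 136.9 and 121.7 CPM in SO-, that is 71.4 ± 1.76 (SD, n = 2) against 125.5 ± 10.1 CPM (SD, n = 3) and a ratio of 1.76. H4 genes summed to 39.4 and 37.4 CPM in SO+ and to 62.4, 54.6 and 60.1 CPM in SO-, a ratio of 1.54. Both types held every SO- embryo above both SO+ embryos. H3 genes did too, but narrowly: 13.7 and 11.2 CPM in SO+ against 15.5, 14.3 and 21.95 CPM in SO-, a ratio of 1.39. H2A genes summed to 53.3 and 39.2 CPM in SO+ and to 49.8, 37.6 and 57.0 CPM in SO-, a ratio of 1.04. H2B genes summed to 35.4 and 25.0 CPM in SO+ and to 33.1, 25.1 and 33.4 CPM in SO-, a ratio of 1.01. For both of these types the lowest SO- embryo and the lowest SO+ embryo were close together.

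The makeup of the histone counts differed accordingly. H1 genes were 33.9% of them in SO+ embryo 1 (95% Wilson interval 32.7 to 35.1) and 38.4% in SO+ embryo 2 (37.0 to 39.7). In SO- embryos 1, 2 and 3 the H1 share was 42.3% (39.5 to 45.2), 51.0% (45.4 to 56.6) and 41.4% (38.6 to 44.1). The H1 shares did not overlap between genotypes, although the intervals of SO+ embryo 2 and of SO- embryos 1 and 3 overlapped. H2A went the other way, with 24.9% and 21.5% in SO+ and 17.9%, 14.0% and 19.4% in SO-, and so did H2B, with 16.5% and 13.7% against 11.9%, 9.33% and 11.4%. H3 (5.33% to 7.46%) and H4 (18.4% to 22.4%) overlapped. Per 100 counts of core histone genes there were 51.2 and 62.2 counts of H1 in SO+ and 73.2, 104.1 and 70.5 in SO-. The Wilson intervals treat each read as independent and leave out differences between embryos. SmartSeq2 reads carry no molecular identifiers, so copies of 1 molecule cannot be recognised and the intervals may be too narrow.

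**Figure D2:**
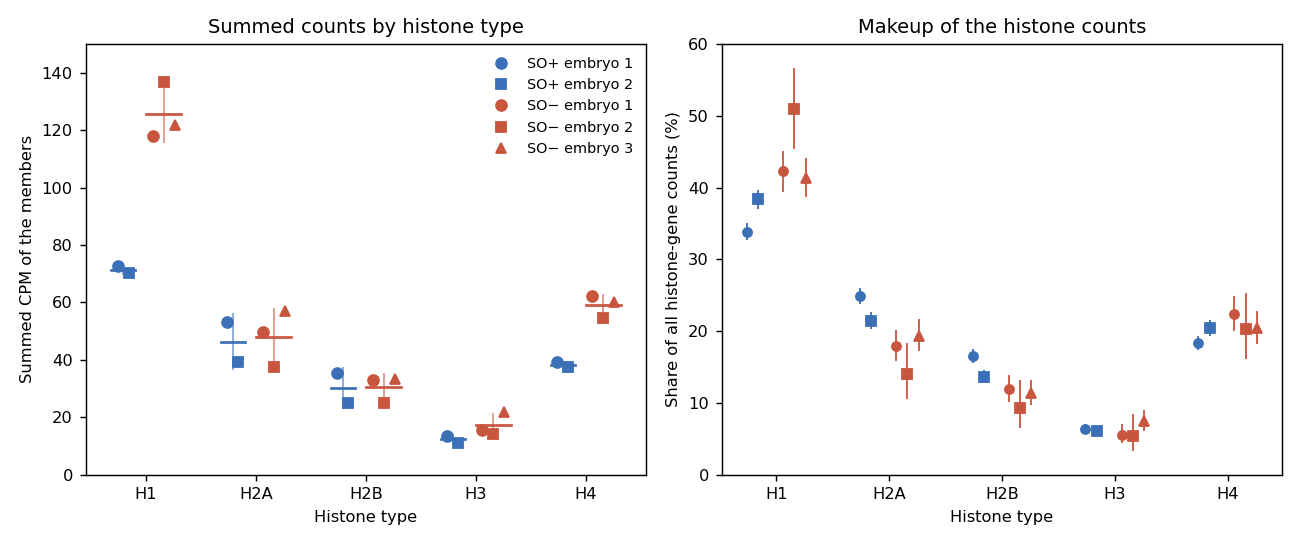
Left, summed CPM of the members of each histone type in each embryo, with the mean (horizontal line) and SD (vertical line) of the 2 SO+ (blue) and 3 SO- (red) embryos. Right, share of each type in all histone-gene counts of that embryo in percent, with 95% Wilson intervals; H1 is at 117.8 to 136.9 CPM in SO- against 70.1 and 72.6 CPM in SO+, while H2A and H2B overlap.

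SO- and SO+ embryos were then compared gene by gene with edgeR's quasi-likelihood test over all 12067 genes with enough counts. Of these, 283 passed an adjusted p (Benjamini-Hochberg) of 0.05 (2.35%), 171 higher in SO- (1.42%) and 112 lower (0.928%). Of the histone genes, 22 were tested and 1 passed, Hist1h1b, which rose. Another 3, Hist1h4d, Hist1h1e and Hist1h1c, had an unadjusted p under 0.05, so 4 of 22 did, where 13.7% of all tested genes did. The log2 fold change (SO- over SO+) was above 0 for 16 of the 22, against 49.7% of all tested genes, and its median was 0.40, against 0.00 for all. The histone median moved both ways when an embryo was left out, with other sets of members then tested. It was 0.70 without SO+ embryo 1 and 0.37 without SO+ embryo 2, over 25 members each. It was 0.67, 0.64 and 0.32 without SO- embryo 1, 2 or 3, over 34, 35 and 30 members. In 10 of the 22 every SO- embryo lay above both SO+ embryos (13.9% of all tested genes), in 2 every SO- embryo lay below (15.6%), and 10 overlapped. These counts and medians are not support for a direction of the family. Of the 22, 4 (Hist1h2ag, Hist1h3c, Hist2h2ac and Hist2h4) reached the filter's level of 2.39 CPM in SO- embryos only. None did so in SO+ embryos only. The log2 fold changes of these 4 were 0.43, 1.28, 1.36 and 0.94, all above the median of the 22.

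**Figure D3:**
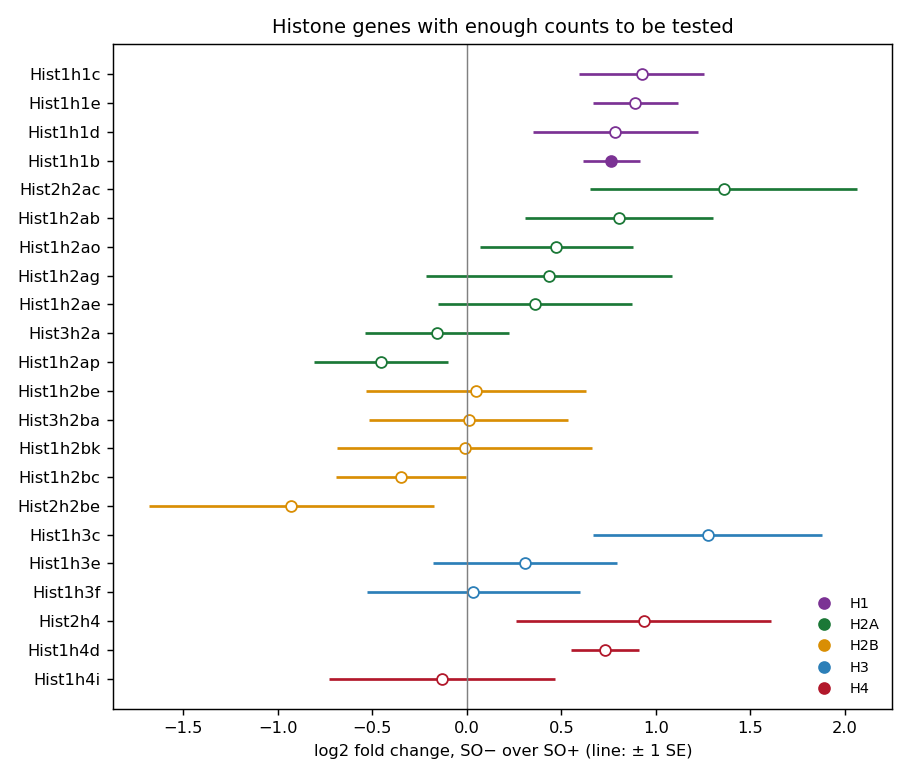
Log2 fold change of SO- over SO+ with 1 SE for the 22 tested histone genes, coloured by type; the filled circle, Hist1h1b, had an adjusted p under 0.05 and open circles did not. The 4 H1 genes lie between 0.77 and 0.93, while the 5 H2B genes lie between -0.93 and 0.05.

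H1 genes encode the linker histones, and the somatic subtypes come from separate genes of the Hist1 cluster. Hist1h1b (chr13:21779883-21780625, - strand, 1 exon) had 1202 and 1083 counts in the SO+ embryos and 286, 85 and 288 in the SO- embryos. On its library that was 43.7 and 40.0 CPM in SO+ and 69.2, 76.1 and 68.7 CPM in SO-, so the groups did not overlap. It rose by 0.77 on the log2 scale (SE 0.15, adjusted p = 0.0172, edgeR), or 1.70-fold. The call rested on all 3 SO- embryos: without SO- embryo 1, 2 or 3 the adjusted p was 0.159, 0.150 or 0.0510, with log2 fold changes of 0.77, 0.73 and 0.78. Every 150-base stretch of its model was unique among all annotated transcripts.

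The other H1 genes had similar log2 fold changes but did not pass. Hist1h1e had 16.1 and 14.7 CPM in SO+ and 24.9, 30.4 and 30.5 CPM in SO- (log2 fold change 0.89, SE 0.22, adjusted p = 0.06 by edgeR). Of its exon bases, 25.7% also lie in Hist1h2be or Gm11398. Hist1h1c had 7.44 and 9.58 CPM in SO+ and 15.0, 22.4 and 13.1 CPM in SO- (log2 fold change 0.93, SE 0.33, adjusted p = 0.206 by edgeR). Hist1h1d had 3.92 CPM in both SO+ embryos and 6.77, 7.16 and 6.44 CPM in SO- (log2 fold change 0.79, SE 0.44, adjusted p = 0.474 by edgeR), where 8 counts stand behind the value of SO- embryo 2. In these 3 genes too, no SO- embryo was as low as an SO+ embryo. Left out for low counts were Hist1h1a, with 34 and 52 counts in SO+ and 8, 1 and 12 in SO-, and the testis gene Hist1h1t, with 8 counts in SO+ embryo 1 and none elsewhere. Without Hist1h1b, which held 55.6% to 60.1% of H1 counts, the H1 sum was 29.0 and 30.1 CPM in SO+ and 48.6, 60.9 and 53.0 CPM in SO-. H1f0, the replacement linker histone gene outside the clusters, had 172.2 and 155.4 CPM in SO+ and 202.4, 182.5 and 200.9 CPM in SO- (log2 fold change 0.27, SE 0.11, adjusted p = 0.312 by edgeR).

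H4 genes are many copies that encode the same core protein, and most of their counts came from Hist1h4d (chr13:23581598-23582735, + strand, 1 exon), whose model goes on for 822 bases after the stop codon. It had 840 and 723 counts in SO+ and 207, 53 and 186 in SO-, which is 30.5 and 26.7 CPM against 50.1, 47.4 and 44.4 CPM. The groups did not overlap, but the gene did not pass (log2 fold change 0.73, SE 0.18, adjusted p = 0.0533 by edgeR), although it did in DESeq2 (adjusted p = 0.0291). Hist1h4d held between 71.5% and 86.9% of the H4 counts in each embryo. Without it the other 12 H4 genes overlapped, with 8.86 and 10.7 CPM in SO+ and 12.3, 7.16 and 15.8 CPM in SO-, so the separation of the H4 sum was that of 1 gene. Hist1h4i had 3.23 and 5.95 CPM in SO+ and 7.01, 0.895 and 3.10 CPM in SO- (adjusted p = 0.964, edgeR), where SO- embryo 2 had 1 count. Hist2h4 had 2.00 and 1.18 CPM in SO+ and 2.42, 5.37 and 2.39 CPM in SO- (log2 fold change 0.94, SE 0.68, adjusted p = 0.626 by edgeR), with 6 to 10 counts behind each SO- value.

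H2A genes encode the core histone that pairs with H2B, and their members did not move together. Hist1h2ap, the highest of them per kb, had 12.6 and 11.5 CPM in SO+ and 9.19, 4.47 and 10.7 CPM in SO-, so every SO- embryo was below both SO+ embryos (log2 fold change -0.46, SE 0.35, adjusted p = 0.656 by edgeR). Hist1h2ao had 6.28 and 5.03 CPM in SO+ and 7.498, 9.84 and 6.92 CPM in SO-, with every SO- embryo above (log2 fold change 0.47, SE 0.40, adjusted p = 0.690 by edgeR). These 2 genes are near-identical copies: 9.01% of the 150-base stretches of Hist1h2ap and 8.46% of those of Hist1h2ao occur in no other member, so how reads were divided between such copies can move either value. Hist1h2ab had 3.12 and 2.88 CPM in SO+ and 5.32, 6.26 and 4.53 CPM in SO- (log2 fold change 0.81, SE 0.50, adjusted p = 0.539 by edgeR). Hist2h2ac, all of whose 150-base stretches are unique, had 1.02 and 1.66 CPM in SO+ and 1.94, 6.26 and 3.34 CPM in SO-, from 8, 7 and 14 counts in SO- (log2 fold change 1.36, SE 0.71, adjusted p = 0.435 by edgeR). That was the largest positive log2 fold change of the 22, and it did not pass. Hist3h2a held the most H2A counts over the 5 embryos (14.3% to 42.1% in each) and varied as much within the genotypes as between them, with 22.4 and 12.5 CPM in SO+ and 16.9, 5.37 and 20.3 CPM in SO-.

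Of the 5 tested H2B genes, 4 overlapped between the genotypes and 1 lay lower in every SO- embryo. Hist1h2bc, which has a spliced model of 2 exons, had 9.30 and 10.8 CPM in SO+ and 8.95, 7.16 and 7.16 CPM in SO-, every SO- embryo being below both SO+ embryos (log2 fold change -0.35, SE 0.34, adjusted p = 0.749 by edgeR). Hist3h2ba had 12.4 and 6.03 CPM in SO+ and 11.6, 0.895 and 11.7 CPM in SO-, so SO- embryo 2, with 1 count, stood apart from the other SO- embryos. Its log2 fold change of 0.01 (SE 0.53) changed sign in 7 of the other ways of fitting. Hist1h2bk, whose promoter is shown above with its octamer, had 4.76 and 1.18 CPM in SO+ and 2.42, 3.58 and 3.10 CPM in SO- (log2 fold change -0.01, SE 0.67). Hist2h2be, whose start lies beside that of Hist2h2ac on the opposite strand, had 3.31 and 1.52 CPM in SO+ and 0.726, 2.68 and 1.19 CPM in SO-, from 3 to 5 counts in SO- (log2 fold change -0.93, SE 0.76, adjusted p = 0.675 by edgeR). This was the largest negative value of the 22.

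H3 genes had the fewest counts of the 5 types, from 376 in SO+ embryo 1 to 16 in SO- embryo 2. Hist1h3c had 1.96 and 1.33 CPM in SO+ and 2.90, 4.47 and 4.77 CPM in SO- from 12, 5 and 20 counts, without overlap (log2 fold change 1.28, SE 0.61, adjusted p = 0.382 by edgeR). Hist1h3e had 4.25 and 3.29 CPM in SO+ and 4.84, 5.37 and 4.06 CPM in SO- (log2 fold change 0.31, SE 0.49, adjusted p = 0.871 by edgeR). Hist1h3f had 3.41 and 2.37 CPM in SO+ and 2.90, 1.79 and 3.58 CPM in SO- (log2 fold change 0.04, SE 0.57, adjusted p = 0.993 by edgeR). The latter 2 genes overlapped between genotypes.

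Across types, the log2 fold changes had a median of 0.84 over the 4 tested H1 genes, 0.43 over 7 H2A genes, -0.01 over 5 H2B genes, 0.31 over 3 H3 genes and 0.73 over 3 H4 genes. By promoter motif, the 5 tested members with an octamer had a median of 0.36 and the 13 matched members without one 0.47. The 10 with TATAAA had a median of 0.75 and the 8 without it 0.37. The 5 with an H1 box, of which 4 are the tested H1 genes, had a median of 0.81, and the 13 without one 0.31. Hist1h2ag and Hist2h2ac (H2A), Hist1h3c (H3) and Hist2h4 (H4) reached the filter's level in SO- embryos only. All but Hist2h4 are in the motif medians too. Without Hist1h3c the H3 genes were at 0.31 and 0.04, and without Hist2h4 the H4 genes at 0.73 and -0.13. These medians are thus not support for a difference between types or motifs.

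Of the 46 members left out of the test, 7 were at 0 in every embryo and the other 39 had 1 to 107 counts over the 5 embryos (median 20). Of these, 3 H2B genes with at most 8 counts in any SO- embryo, Hist1h2bb, Hist1h2bg and Hist1h2bm, were higher in every SO- embryo than in both SO+ embryos. Another 4, Hist1h2ai, Hist1h2an, Hist1h4f and Hist2h2ab, had 4 to 7 counts in all, each of them in SO+ embryos, where the SO- libraries are too shallow to show such levels. The share of all untested genes without overlap was not worked out. Neither set is therefore read as a difference between the genotypes. Hist1h2aa and Hist1h2ba, at 0, are known as testis genes. The other genes at 0 were Hist2h2aa1, Hist2h2aa2, Hist2h2bb, Hist2h3b and Hist2h3c1 of the Hist2 cluster, which are also the 5 members whose exon bases all lie within another annotated gene such as Gm20628 or Gm20634. How reads in overlapping genes were counted is not given in the sources used here, so the 0 of these 5 genes is not read as absence of their RNA.

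More members were seen at all in the SO+ embryos, whose libraries were larger. At least 1 count was found for 55 and 58 members in SO+ and for 43, 33 and 51 in SO- embryos. At an equal depth of 1117566 counts, the expected numbers were 32.7 and 31.7 in SO+ and 33.8, 33 and 41.5 in SO-. The lower number in SO- was thus no longer seen at equal depth, where SO- embryo 3 had the most.

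The histone sum was also split by the length of the annotated 3′ end. The 31 members whose model goes on for at least 100 bases after the stop codon had 131.8 and 110.3 CPM in SO+ and 166.2, 155.7 and 173.7 CPM in SO-, and the 36 members with shorter models had 82.1 and 72.4 CPM against 112.2, 112.7 and 119.5 CPM. Neither group overlapped between the genotypes. Without Hist1h1b, however, the other 35 short models had 38.5 and 32.3 CPM in SO+ and 43.05, 36.7 and 50.8 CPM in SO-, which overlapped, so their separation was that of 1 gene. Without Hist1h4d the other 30 long models had 101.3 and 83.6 CPM in SO+ and 116.1, 108.3 and 129.3 CPM in SO-, without overlap. The long models held 58.0% to 61.5% of the histone counts in each embryo. By cluster, Hist1 summed to 172.4 and 158.9 CPM in SO+ and to 244.5, 247.0 and 252.9 CPM in SO-. The 2 Hist3 genes overlapped, with 34.8 and 18.5 CPM against 28.5, 6.26 and 32.0 CPM. Leaving out the 20 members in which fewer than 50% of the 150-base stretches are unique among the members left 48 genes with 185.9 and 161.6 CPM in SO+ and 253.2, 246.1 and 266.5 CPM in SO-.

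Genes that act with the clustered histone genes were read from the same fit. Of 42 replication genes of S phase, all tested, 1 passed, a share close to the 2.35% of all tested genes. Ccne1, which encodes the cyclin that drives entry into S phase, fell by 0.61 on the log2 scale (SE 0.11, adjusted p = 0.0123, edgeR), and none rose. The log2 fold change was below 0 for 35 of the 42, against 50.3% of all tested genes. An unadjusted p under 0.05 was found for 10 of the 42, all lower in SO- (edgeR), where 13.7% of all tested genes had one. In 22 every SO- embryo lay below both SO+ embryos (15.6% of all tested genes), and in 2 every SO- embryo lay above (13.9%). Ccne1 had 374.7 and 443.7 CPM in SO+ and 267.5, 245.2 and 283.4 CPM in SO-, without overlap, but did not pass without SO- embryo 1 (adjusted p = 0.159) or 2 (adjusted p = 0.164). The median of the 42 was -0.11, and their sum was 10070 and 10100 CPM in SO+ and 8809, 8688 and 9141 CPM in SO-. Pcna, the sliding clamp of the replication fork, had 401.4 and 462.4 CPM in SO+ and 434.4, 366.9 and 367.9 CPM in SO-, which overlapped (adjusted p = 0.677, edgeR). The 7 mitosis genes summed to 2718 and 2675 CPM in SO+ and to 2592, 2680 and 2748 CPM in SO-, and none passed. Their members differed in direction. In 2, Mki67 and Top2a, every SO- embryo lay above both SO+ embryos (13.9% of all tested genes). In another 2, Bub1 and Ccnb1, every SO- embryo lay below (15.6%).

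Of 20 genes for histone transcription and 3′ end processing, none passed in edgeR, DESeq2 or limma-voom. Where 13.7% of all tested genes had an unadjusted p under 0.05 in edgeR, 1 of the 20 did. That gene was Slbp, the stem-loop binding protein, which had 294.1 and 365.4 CPM in SO+ and 272.8, 255.0 and 250.7 CPM in SO-, every SO- embryo below both SO+ embryos (log2 fold change -0.34, SE 0.12, adjusted p = 0.196 by edgeR). Npat, the coactivator of histone transcription in S phase, had 51.0 and 53.4 CPM in SO+ and 53.5, 51.9 and 64.9 CPM in SO- (adjusted p = 0.795, edgeR). Of 15 histone chaperone genes, Rbbp7, which encodes a histone-binding subunit of several chromatin complexes, rose by 0.47 on the log2 scale (SE 0.10, adjusted p = 0.0274, edgeR). It had 528.3 and 585.2 CPM in SO+ and 794.3, 794.6 and 711.4 CPM in SO-. It did not pass without SO+ embryo 1 (adjusted p = 0.190) or SO- embryo 1 (adjusted p = 0.281) or 2 (adjusted p = 0.195). Rbbp7 was the only gene of the 15 that passed, where 2.35% of all tested genes did. The log2 fold change was below 0 for 10 of the 15, against 50.3% of all tested genes. An unadjusted p under 0.05 (edgeR) was found for 3, 1 higher and 2 lower, where 13.7% of all tested genes had one. In 7 every SO- embryo lay below both SO+ embryos (15.6% of all tested genes), and in 1 every SO- embryo lay above (13.9%).

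Most replacement histone genes are transcribed outside S phase as well and have ordinary poly(A) tails. Of the 11 listed, 10 were tested and both macroH2A genes rose by adjusted p (edgeR), where 1.42% of all tested genes did. H2afy had 18.1 and 23.7 CPM in SO+ and 81.3, 77.9 and 75.9 CPM in SO- (log2 fold change 1.91, SE 0.18, adjusted p = 0.000142 by edgeR). H2afy2 had 22.04 and 25.8 CPM in SO+ and 54.4, 54.6 and 58.7 CPM in SO- (log2 fold change 1.23, SE 0.18, adjusted p = 0.00248 by edgeR). H2afy2 did not pass without SO- embryo 1 (adjusted p = 0.0526) or 2 (adjusted p = 0.0628). The other 8 did not pass, and the 11 genes together overlapped, at 3888 and 3847 CPM in SO+ and 4060, 3653 and 4001 CPM in SO-. H2afz, H3f3a and H3f3b had log2 fold changes of -0.11, -0.04 and 0.04.

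**Figure D4:**
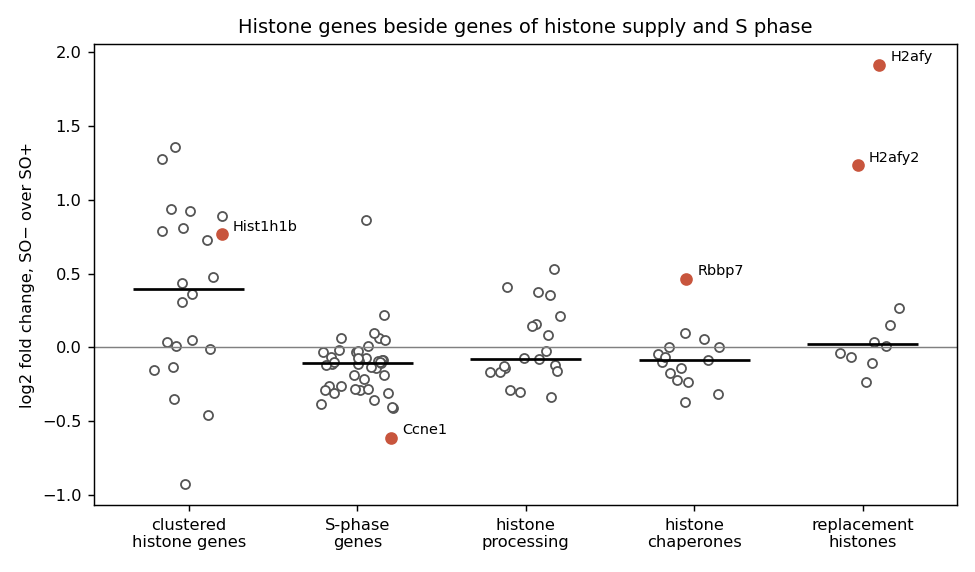
Log2 fold change of SO- over SO+ for the tested genes of 5 groups; each circle is 1 gene, the black line is the group's median, and filled, named circles had an adjusted p under 0.05. The clustered histone genes have a median of 0.40 and spread from -0.93 to 1.36, while the medians of the S-phase, processing, chaperone and replacement histone genes are -0.11, -0.08, -0.08 and 0.02. The clustered genes include 4 that reached the filter's level in SO- embryos only, with Hist2h2ac at 1.36 among them. Their median is therefore not support for a direction.

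Other measures moved with genotype in the same libraries, and their part in the histone values was not tested. In these samples of mixed tissue, fewer cells of a type and less RNA per cell cannot be told apart. The 8 epiblast markers, Pou5f1 among them, summed to 7664 and 6406 CPM in SO+ and to 3578, 2909 and 4521 CPM in SO-. By adjusted p (edgeR), 3 of the 8 were lower, where 0.928% of all tested genes were. Of the 8, 6 had a log2 fold change below 0, against 50.3% of all tested genes. Sox2 (0.56) and Fgf5 (0.38) were above 0 and did not pass. Dnmt3b alone had 3983 and 3263 CPM in SO+ and 1708, 1447 and 2286 CPM in SO-. The 11 VE markers overlapped, with 3145 and 3538 CPM in SO+ and 4858, 4813 and 3028 CPM in SO-, and none passed. The log2 fold change was above 0 for 10 of the 11, against 49.7% of all tested genes, with a median of 0.39. An unadjusted p under 0.05 was found for 5 of the 11, all of them higher in SO- (edgeR), where 13.7% of all tested genes had one. The 8 ExE markers summed to between 17.4 and 19.7 CPM in each embryo. Of 7 markers of maternal and blood cells 6 were at 0 in every embryo, and the sum was at most 1.91 CPM. RNAs that carry no poly(A) tail, of which 13 of 16 listed were in the table, had 20 and 24 counts in SO+ and 3, 3 and 10 in SO-, that is 0.726 and 0.887 CPM against 0.726, 2.68 and 2.39 CPM. SO- embryos 1 and 2 were at the floor of 3 counts, while SO- embryo 3, of nearly the same depth as SO- embryo 1, was above both SO+ embryos. No test was run on this sum.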

How the data were processed

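The authors aligned the paired reads with STAR to GRCm38/mm10, counted them on Ensembl 87 genes with HTSeq, and deposited raw counts for 49671 genes in 5 embryos. Counting mode, use of strand and removal of duplicates are not given in the sources used here, so reads of overlapping genes, antisense genes or near-identical copies may be split or dropped. Genotype and embryo number came from the labels, and each label is 1 embryo.

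The deposited counts were tested in R 4.3.3 with edgeR 4.0.16 (filterByExpr and TMM factors, a quasi-likelihood model with genotype alone, Benjamini-Hochberg adjustment over the 12067 genes tested, threshold 0.05). The study's methods name DESeq2, run here as an alternative (1.42.0) beside limma-voom (3.58.1). SE is the absolute log2 fold change over the square root of F. The test was also tried on counts simulated from this fit. Such a trial cannot separate depth from genotype, and no result here rests on it. CPM is the count over the library total. Depths of 1117566 to 27538119 counts limit SO- embryo 2 most. The median log2 fold change of all tested genes was 0.00.

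Gene models and stem-loops came from GENCODE M21 on the same build (66 members matched by gene ID and 2 by name), and promoters from RefSeq on GRCm38.p6. Members and companion lists were chosen with earlier results of these data known. Genes named are members with an adjusted p under 0.05, the 3 highest per kb of each type, the 3 largest rises and falls tested, called companion genes, and Slbp, Npat, Pcna and Pou5f1. Other genes, such as Hist1h1d, Hist1h1a, Hist1h1t, Hist1h2bb, Hist1h2bg, Hist1h2bm, Hist3h2a, H1f0, H2afz, H3f3a, H3f3b Hist1h2ai, Hist1h2an, Hist1h4f, Hist2h2ab and those at 0, were named after their values were seen. So were Sox2, Fgf5, Dnmt3b, Mki67, Top2a, Bub1 and Ccnb1. Protein sequences were not used here.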

Additional observations from a re-analysis of the deposited data

How the results depend on the processing

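The named genes, the counts of calls and the sums were recomputed with other scaling factors, filters, tests and with each embryo left out. They were also recomputed, chosen after seeing the data, with each library's GC or exon length trend removed. DESeq2 called 393 of all 12067 genes tested, against 283 in the main fit. Over all genes, limma-voom called 91 and leaving out an embryo gave 35 to 573 calls. Of the histone genes, DESeq2 called 3 (Hist1h1b, Hist1h1e and Hist1h4d), limma-voom 0 (the smallest was Hist1h1b at an adjusted p of 0.0509), the exon length correction 2, and leave-one-out fits 0 to 1. S-phase calls were 0 in limma-voom and 0 to 2 with an embryo left out, and chaperone calls 0 and 0 to 1. The replicate block called 929 genes in all, 3 histone genes (Hist1h1b, Hist1h1c and Hist1h4d) and 5 S-phase genes. Same-numbered embryos are different animals as far as the labels say, and their deviations from the genotype means correlated at -0.01 and 0.12. With 2 SO+ embryos, the deviations of 1 mirror those of the other. These values therefore cannot show whether same-numbered embryos share more than a number. The log2 ratio of the histone sum (0.50) was 0.39 to 0.62 without an embryo, and that of H4 (0.62) was 0.27 without Hist1h4d. The number of members seen was 14.2 higher in SO+, but -3.90 at equal depth. Uncalled log2 fold changes near 0 changed sign. That of Hist3h2ba (0.011) was -0.009 with upper-quartile factors, -0.016 without a filter, -0.058 in DESeq2, -0.57 with the block and -0.40 to 0.61 with an embryo left out, below 0 without SO+ embryo 2 or SO- embryo 1 or 3. That of Hist1h2bk (-0.012) was 0.004 in DESeq2, 0.33 in limma-voom, 0.058 and 0.074 with the GC and length corrections, and -0.69 to 1.30 with an embryo left out, above 0 without SO+ embryo 1 or SO- embryo 1. That of Hist1h3f (0.035) was -0.001 without a filter, -0.28 with the block and -0.20 to 0.31 with an embryo left out, below 0 without SO+ embryo 2 or SO- embryo 3. That of Hist1h4i (-0.13) was 0.061 with the block and -0.94 to 0.37 with an embryo left out, above 0 without SO+ embryo 2 or SO- embryo 2 or 3. With an embryo left out, Hist3h2a (-0.16) was at -0.51 to 0.32, H3f3a (-0.035) at -0.12 to 0.055 and H3f3b (0.038) at -0.048 to 0.12. The causes were not tested. For these 7 genes the adjusted p was above 0.05 in every fit in which the sign changed. Counts under 10 in SO- embryo 2 limit all but 5 members.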
